A study of Mus musculus with 144 samples.

Results

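Bmal1-/- livers were compared with wild-type livers at ZT22, 22 h after lights on and near the end of the dark phase. The comparison takes 12 of the 144 libraries of the study, 6 of each genotype, chosen by the genotype, RNA fraction and time on their labels and by no measured value. Both groups were total RNA from livers of mice described as male C57BL/6J, housed in 12 h light and 12 h dark with food and water at will, with no treatment named. The knockout group was labelled Bmal1-/-, and the gene symbol of Bmal1 is Arntl. How the allele was made, whether it was removed in the whole body, and the age of the mice are not given in the sources used here. The study also sequenced nuclear and polysomal RNA of wild-type liver, and sampled every group at 6 times of day (ZT2, 6, 10, 14, 18 and 22) with 6 libraries each. The libraries (QuantSeq) read the 3′ end of polyadenylated RNA, so a count is a read at a transcript's end and a gene's level needs no correction for length. Levels are given here in CPM, a library's counts scaled to a common total.

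The liver clock is a loop of transcription factors. BMAL1 pairs with CLOCK, or with its relative NPAS2, binds the E-box CACGTG, and activates the Per, Cry, Nr1d and Dbp genes, whose products act back on the loop: PER and CRY proteins inhibit BMAL1, and NR1D1 and NR1D2 (REV-ERB alpha and beta) repress Arntl, Cry1 and Nfil3 at elements that the ROR proteins activate. A further arm joins DBP, TEF and HLF, which activate through D-boxes, to NFIL3, which represses there. The clock's activators and their targets peak at different times of day, so a single time of collection shows each gene at its own phase.

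Promoter windows are shown for 6 of the 7 clock genes whose genotype difference at ZT22 departed from that at other times, because between them they hold the 3 kinds of element of the loop. The window of the remaining gene, Dbp, holds no match and is not shown. Each runs from 250 bases before to 50 after a transcription start in RefSeq (GRCm38.p6) and is written 5′ to 3′ on the gene's strand, with matches in capitals. The motifs searched on both strands were the E-box CACGTG, the nuclear receptor half-site AGGTCA bound by ROR and NR1D proteins, and the D-box TTATGTAA. No base fell in matches of 2 motifs. Tef (chr15:81802423-81802722, plus strand) and Cry1 (chr10:85185005-85185304, minus strand) hold 1 E-box each. The other Tef window, not shown, also holds 1. Per3 (chr4:151044616-151044915, minus strand) holds 2 D-boxes. Nr1d2 (chr14:18239057-18239356, minus strand), Nfil3 (chr13:52980990-52981289, minus strand) and the second of 2 Arntl windows (chr7:113207261-113207560, plus strand) hold 1 half-site each.
Tef: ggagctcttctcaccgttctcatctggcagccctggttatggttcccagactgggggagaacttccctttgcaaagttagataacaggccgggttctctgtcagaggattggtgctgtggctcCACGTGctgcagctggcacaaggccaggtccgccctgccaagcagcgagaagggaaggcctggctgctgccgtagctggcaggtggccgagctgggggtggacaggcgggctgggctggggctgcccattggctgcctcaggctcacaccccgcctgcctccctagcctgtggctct
Cry1: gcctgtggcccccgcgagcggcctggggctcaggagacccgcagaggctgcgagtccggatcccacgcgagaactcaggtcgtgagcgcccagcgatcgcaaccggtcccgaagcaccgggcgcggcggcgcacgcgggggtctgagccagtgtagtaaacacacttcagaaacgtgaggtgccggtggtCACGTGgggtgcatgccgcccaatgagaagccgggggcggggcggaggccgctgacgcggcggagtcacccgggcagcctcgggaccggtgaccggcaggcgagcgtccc
Per3: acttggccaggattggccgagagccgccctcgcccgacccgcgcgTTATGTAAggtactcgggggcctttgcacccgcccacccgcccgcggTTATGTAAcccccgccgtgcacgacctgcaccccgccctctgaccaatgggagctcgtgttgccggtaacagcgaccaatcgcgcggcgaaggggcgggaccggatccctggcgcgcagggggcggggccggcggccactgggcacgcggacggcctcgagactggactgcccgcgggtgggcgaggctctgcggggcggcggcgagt
Nr1d2: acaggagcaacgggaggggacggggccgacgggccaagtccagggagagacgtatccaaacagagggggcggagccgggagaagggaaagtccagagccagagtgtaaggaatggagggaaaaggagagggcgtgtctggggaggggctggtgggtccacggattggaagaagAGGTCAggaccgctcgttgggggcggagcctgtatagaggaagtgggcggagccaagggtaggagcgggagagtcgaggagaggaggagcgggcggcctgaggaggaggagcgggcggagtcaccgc
Nfil3: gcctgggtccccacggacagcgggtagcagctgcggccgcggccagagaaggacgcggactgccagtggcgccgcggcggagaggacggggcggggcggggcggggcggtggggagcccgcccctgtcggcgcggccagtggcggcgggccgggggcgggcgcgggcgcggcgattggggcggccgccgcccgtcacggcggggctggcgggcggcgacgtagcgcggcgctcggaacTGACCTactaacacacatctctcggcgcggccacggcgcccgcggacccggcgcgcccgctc
Arntl: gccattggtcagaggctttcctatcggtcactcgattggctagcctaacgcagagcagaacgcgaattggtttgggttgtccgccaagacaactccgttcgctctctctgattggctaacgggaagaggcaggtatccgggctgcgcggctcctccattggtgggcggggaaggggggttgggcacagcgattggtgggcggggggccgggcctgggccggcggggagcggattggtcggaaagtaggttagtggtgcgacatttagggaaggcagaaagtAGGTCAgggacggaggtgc

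Of 32851 RefSeq windows, 7.15% held the E-box, 16.3% the half-site and 0.938% the D-box. Of 33 windows of the listed clock genes, the shares were 18.2%, 21.2% and 3.03%. Of the 30 clock genes listed, 24 had a window, and 12 of those held none of the 3 motifs, Dbp, Nr1d1 and Npas2 among them. A match is a run of letters and not a bound site, and a window without one says only that these letters are not in it.

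The wild-type libraries held 6646766 to 9828730 gene counts and the Bmal1-/- libraries 5763180 to 14094553. In 2 libraries the sex-chromosome genes did not match the label male. The library labelled wild type 5 had Xist, the RNA of the inactive X chromosome, at 408 CPM and the Y-linked Ddx3y at 0.380, against 61.3 to 85.8 CPM of Ddx3y in the other wild-type libraries. The library labelled Bmal1-/- 6 had Xist at 491 CPM together with Ddx3y at 92.9. Wild type 3 stood apart in a different way, with the 5 erythroid genes at a summed 13134 CPM against 2543 to 3647 in the other wild-type libraries. Results are given with all 12 libraries and, where the call of a named gene, site or list member changed, also without the 2 libraries that held Xist. The labels number the libraries but do not tie each to its own mouse, so p-values measure the spread between libraries.

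The knocked-out gene itself did not separate the genotypes at this time. Arntl ranged from 8.14 to 19.3 CPM (median 12.4) in the wild-type libraries and from 7.52 to 18.6 (median 10.8) in the Bmal1-/- libraries, with the groups overlapping (log2 change -0.26, SE 0.22, adjusted p = 0.583). Reads of this assay lie at 3′ ends, and nothing in the sources used here places the deleted part there, so this level checks neither genotype label nor loss of the protein. Of 3 polyadenylation sites tested in Arntl, the one at the annotated gene end had a median of 2.73 CPM in wild type, against 1.26 in the knockout (log2 change -1.12, adjusted p = 0.316), and the other 2 had log2 changes of 0.15 and 0.52. At ZT10, the daily low of wild type, Arntl was at 0.852 ± 0.473 CPM in wild type and 12.2 ± 2.38 CPM in Bmal1-/- (mean ± SD, n = 6).

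Across the transcriptome, 645 of 12198 genes tested differed between the genotypes (edgeR quasi-likelihood test, Benjamini-Hochberg adjusted p under 0.05), or 5.29%, with 306 higher (2.51%) and 339 lower (2.78%) in Bmal1-/-. Of these, 340 had groups that did not overlap in any library, and 4.09% of all genes tested had such groups, 2.94% with Bmal1-/- above and 1.15% with it below. Without the 2 libraries with Xist 452 of 12151 genes passed (3.72%), 397 of them among the 645. Leaving out wild type 2 gave 410 genes and leaving out Bmal1-/- 3 gave 423, while 319 of the 645 passed in each of the 12 fits that left out 1 library. Of 639 called genes also tested on the average difference over the other 5 times, 609 were called there in the same direction, against 40.4% of all genes called there in either direction.

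Among the 30 clock genes listed, 27 were tested and 5 passed, 4 higher (Npas2, Cry1, Cry2 and Tef) and 1 lower (Nfil3), where 5.29% of all genes passed. Their median log2 change was 0.14, beside 0.01 over all genes. Averaged over the other 5 times, 22 of the same 27 genes differed between genotypes, where 40.4% of all genes did, and 20 differed at ZT10, where 16.4% of all genes did. Rorb, Ciart and Bhlhe41 were below the minimum of 10 counts on average and were not tested.

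**Figure D1:**
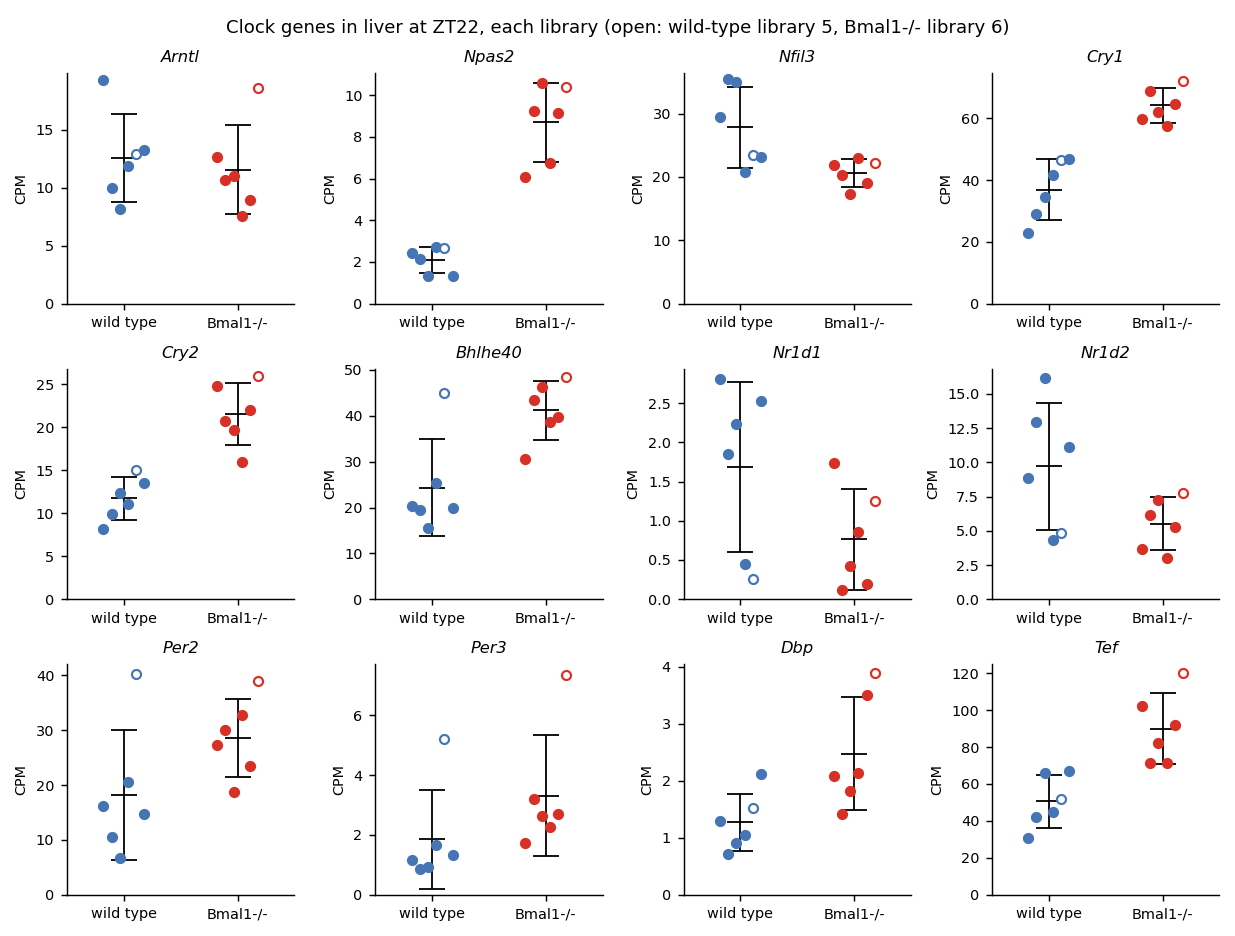
CPM of 12 clock genes in each of the 12 libraries at ZT22; bars are the mean and SD of 6 libraries, and open circles are wild type 5 and Bmal1-/- 6, the libraries with Xist. The groups separate for Npas2, Cry1, Cry2 and Tef and overlap for Arntl, Nfil3, Bhlhe40, Nr1d1, Nr1d2, Per2, Per3 and Dbp.

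Of the activators, Npas2, the partner that can stand in for CLOCK, rose most. Its level ranged from 1.32 to 2.71 CPM (median 2.29) in the wild-type libraries and from 6.07 to 10.6 (median 9.17) in the Bmal1-/- libraries, a 3.82-fold rise (log2 change 1.93, SE 0.23, adjusted p = 0.000183). Every Bmal1-/- library was above every wild-type library, and the call held in each of the 12 fits that left out 1 library and in libraries 1 to 3 and 4 to 6 alone. Clock, the usual partner of BMAL1, ranged from 41.96 to 52.8 CPM (median 48.02) in the wild-type libraries and from 43.5 to 59.6 (median 52.7) in the Bmal1-/- libraries, with overlapping groups (adjusted p = 0.964). Rora, which encodes an activator of Arntl, did not pass either (log2 change 0.093, adjusted p = 0.790).

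The 2 cryptochromes, which inhibit CLOCK and BMAL1, rose together. Cry1 ranged from 22.9 to 46.95 CPM (median 38.1) in the wild-type libraries and from 57.5 to 72.1 (median 63.3) in the Bmal1-/- libraries (log2 change 0.68, SE 0.16, adjusted p = 0.0216). Cry2 ranged from 8.17 to 15.1 CPM (median 11.8) in the wild-type libraries and from 15.96 to 25.9 (median 21.4) in the Bmal1-/- libraries (log2 change 0.75, SE 0.16, adjusted p = 0.0106). In both genes the lowest Bmal1-/- library was above the highest wild-type library, and both calls held in each of the 12 fits that left out 1 library. In libraries 1 to 3 alone the log2 change of Cry1 was 1.03 (adjusted p = 0.0208), and in libraries 4 to 6 alone it was 0.40 (adjusted p = 0.264). Those of Cry2 were 0.97 (adjusted p = 0.0516) and 0.55 (adjusted p = 0.249), and neither passed.

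The 3 Per genes encode the partners of the cryptochromes and did not pass. Per2 had lowest, median and highest values of 6.61, 15.5 and 40.3 CPM in wild type, against 18.8, 28.6 and 38.9 in the Bmal1-/- libraries (log2 change 0.55, SE 0.34, adjusted p = 0.424), Per1 a log2 change of 0.79 (adjusted p = 0.285) and Per3 one of 0.72 (adjusted p = 0.417). The highest wild-type value of Per2 and Per3 was in the same library, wild type 5. Without the 2 libraries with Xist the log2 changes were 0.86 for Per2 (adjusted p = 0.0991) and 1.004 for Per3 (adjusted p = 0.103). Bhlhe40, a repressor that competes at E-boxes, gained a call by that step: it ranged from 15.6 to 44.9 CPM (median 20.2) in the wild-type libraries and from 30.5 to 48.5 (median 41.6) in the Bmal1-/- libraries (log2 change 0.66, SE 0.20, adjusted p = 0.0764), and without those libraries its log2 change was 0.89 (adjusted p = 0.00846).

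Both REV-ERB genes, direct targets of BMAL1, were low in both genotypes at ZT22 and their groups overlapped. Nr1d1 had lowest, median and highest values of 0.254, 2.05 and 2.80 CPM in wild type, against 0.118, 0.635 and 1.74 in the Bmal1-/- libraries (log2 change -1.34, SE 0.61, adjusted p = 0.238). Nr1d2 had values of 4.36, 10.01 and 16.2 CPM in wild type, against 2.98, 5.73 and 7.76 in the Bmal1-/- libraries (log2 change -0.96, SE 0.32, adjusted p = 0.109). In wild type their means at the daily peak were 41.3 ± 8.58 CPM for Nr1d1 at ZT6 and 107 ± 12.1 CPM for Nr1d2 at ZT10 (mean ± SD, n = 6).

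In the D-box arm, Tef rose and Nfil3 fell, while Dbp and Hlf did not pass. Tef ranged from 30.9 to 67.1 CPM (median 48.3) in the wild-type libraries and from 71.2 to 120.3 (median 87.03) in the Bmal1-/- libraries (log2 change 0.71, SE 0.18, adjusted p = 0.0335). All 6 Bmal1-/- values of Tef lay above the wild-type ones, but the call was lost in 8 of the 12 fits that left out 1 library and, with an adjusted p of 0.109, without the 2 libraries with Xist. Nfil3, the repressor of the arm, ranged from 20.8 to 35.5 CPM (median 26.5) in the wild-type libraries and from 17.3 to 23.1 (median 21.1) in the Bmal1-/- libraries (log2 change -0.55, SE 0.15, adjusted p = 0.0436). Its groups overlapped, its call was lost in 10 of those 12 fits, and without the 2 libraries with Xist its adjusted p was 0.0678. Dbp, an activator of the arm, had lowest, median and highest values of 0.712, 1.17 and 2.12 CPM in wild type, against 1.42, 2.11 and 3.88 in the Bmal1-/- libraries (log2 change 0.83, SE 0.34, adjusted p = 0.183), and Hlf a log2 change of 0.17 (adjusted p = 0.565).

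None of the 10 output genes of the liver clock passed. They hold Wee1, a cell cycle kinase, Usp2, a deubiquitinase, Nampt, an enzyme of NAD synthesis, Noct, Gys2, the liver glycogen synthase, Upp2, a uridine phosphorylase, Por, which passes electrons to P450 enzymes, Alas1, the first enzyme of haem synthesis, Elovl3 and Tfrc. The smallest adjusted p values were those of Nampt, with a log2 change of -0.52 (adjusted p = 0.0616), and Gys2, with -0.65 (adjusted p = 0.0809). Gys2 passed without the 2 libraries with Xist (log2 change -0.78, adjusted p = 0.0316). Usp2, whose values were 6.66, 12.2 and 27.1 CPM in wild type, against 4.71, 8.15 and 15.5 in the Bmal1-/- libraries as lowest, median and highest, had a log2 change of 0.30 in libraries 1 to 3 and -1.78 (adjusted p = 0.0264) in libraries 4 to 6.

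Wild-type clock genes passed through wide daily ranges and Bmal1-/- ones through narrow ranges. Over the 27 genes the highest time mean was a median of 6.79 times the lowest in wild type and 1.43 times in Bmal1-/-, and it was wider in wild type for all 27. Wild type at ZT22 was the lowest or second lowest of the 6 times for 12 genes and the highest or second highest for 7. For 17 of the 27 genes the Bmal1-/- mean at ZT22 lay inside the wild-type range of time means. Genes for which it lay above that range included Npas2, Rora, Cry1, Cry2 and Elovl3, and it lay below for Nr1d2, Nampt, Gys2 and Upp2.

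**Figure D2:**
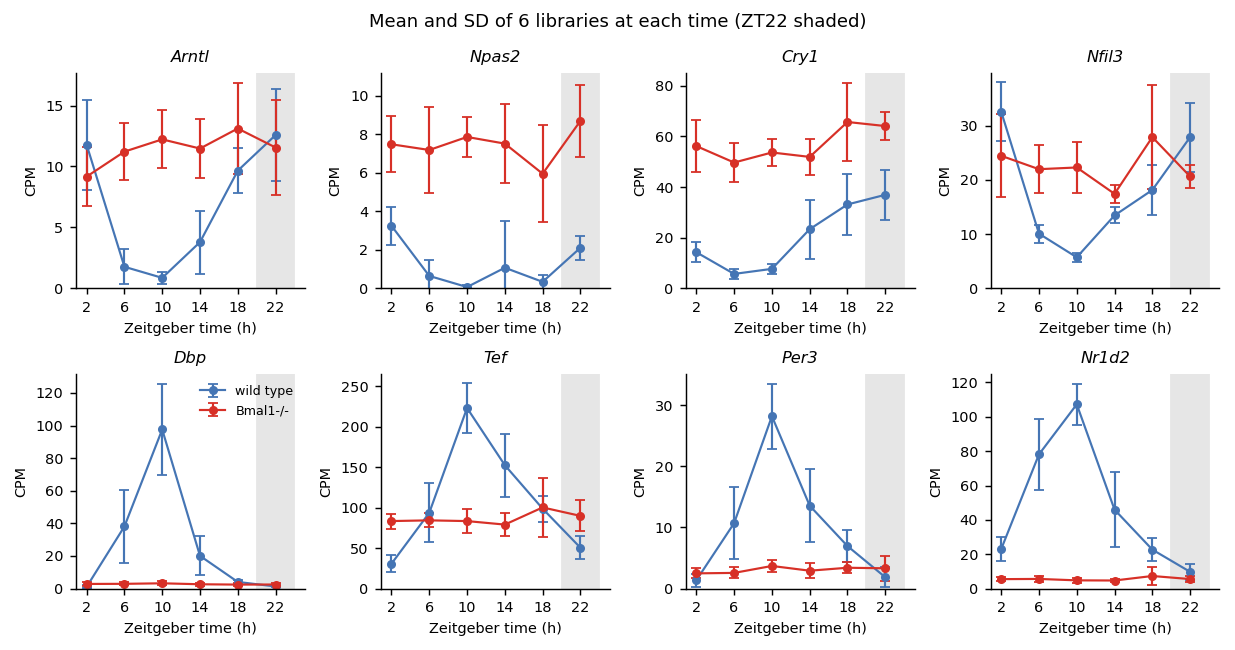
CPM (mean and SD of 6 libraries) of 8 clock genes at 6 times of day in wild type and Bmal1-/-, with ZT22 shaded. At ZT22 the wild-type curves of Arntl, Cry1 and Nfil3 are near their peak and those of Dbp, Tef, Per3 and Nr1d2 near their low, and the Bmal1-/- curves are nearly flat.

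Whether the genotype difference at ZT22 itself departed from that at the other 5 times was tested in 1 fit of 72 libraries. It did so for 15 of 12082 genes (0.124%), 6 with a higher and 9 with a lower difference at ZT22. Clock genes made up 7 of the 15. Arntl, Cry1 and Nfil3 had a lower difference at ZT22, and Dbp, Per3, Nr1d2 and Tef a higher one. Differences at the other times and contrasts come from this fit, in which 6.97% of genes differed at ZT22, and log2 changes at ZT22 from the fit of 12 libraries. No contrast was called when only libraries 4 to 6 of every group were used (441 at an unadjusted p under 0.05), and 18 were called with libraries 1 to 3.

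Arntl, Cry1 and Nfil3 stood near their daily high in wild type at ZT22, and the excess in Bmal1-/- over the other times was smaller or reversed at ZT22. Arntl had a log2 difference of 1.54 over the other 5 times and -0.26 at ZT22 (contrast -1.79, SE 0.31, adjusted p = 0.000804). Cry1 was higher by 1.92 over the other times and by 0.68 at ZT22 (contrast -1.23, SE 0.23, adjusted p = 0.00170). Nfil3 changed sign, from 0.64 to -0.55 (contrast -1.18, SE 0.19, adjusted p = 0.000369). Npas2, with 3.58 and 1.93, did not pass this contrast (adjusted p = 0.635).

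Targets that peak by day in wild type showed the reverse. Dbp had a log2 difference of -2.27 over the other 5 times and 0.83 at ZT22 (contrast 3.12, SE 0.48, adjusted p = 0.000180). Its wild-type mean was 97.6 ± 28.1 CPM at ZT10 and 1.27 ± 0.505 at ZT22, and its Bmal1-/- mean 3.22 ± 1.17 and 2.47 ± 0.987 (mean ± SD, n = 6). Nr1d2 had -3.15 and -0.96 (contrast 2.19, SE 0.38, adjusted p = 0.000824), and Per3 had -1.56 and 0.72 (contrast 2.28, SE 0.43, adjusted p = 0.00269). The contrast of Tef (1.02, SE 0.22, adjusted p = 0.0151) was lost in 5 of the 12 fits that left out 1 library at ZT22 and without both libraries with Xist (adjusted p = 0.175).

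**Figure D3:**
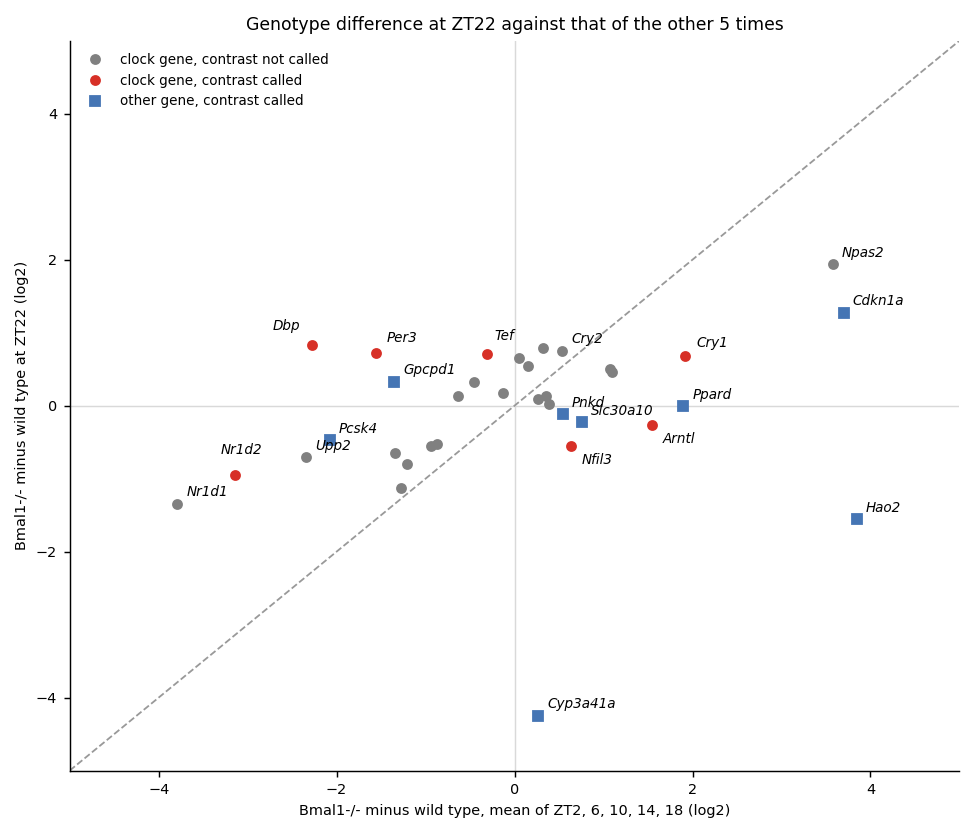
Log2 difference between Bmal1-/- and wild type at ZT22 (y axis) against the mean difference at the other 5 times (x axis) for the 27 clock genes and the other genes with a called contrast; the dashed line marks equal differences. Most clock genes lie nearer to 0 on the y axis than on the x axis, and Dbp, Per3, Tef, Arntl and Nfil3 lie on opposite sides of 0 on the 2 axes.

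Of the 15 genes with a called contrast, 8 were outside the clock lists. Cdkn1a, the cell cycle inhibitor p21, was higher in Bmal1-/- by 3.70 over the other times and by 1.27 at ZT22 (contrast -2.41, SE 0.54, adjusted p = 0.0290). At ZT22 it ranged from 42.6 to 116 CPM (median 87.1) in the wild-type libraries and from 137 to 386 (median 182) in the Bmal1-/- libraries, and the groups did not overlap. Ppard, a fatty acid receptor, had 1.90 and -0.0076 (contrast -1.90, SE 0.39, adjusted p = 0.00727), and Slc30a10, a manganese exporter, had 0.75 and -0.22 (contrast -0.97, SE 0.17, adjusted p = 0.000656). Gpcpd1, a glycerophosphocholine phosphodiesterase, went the other way, with -1.36 and 0.33 (contrast 1.69, SE 0.32, adjusted p = 0.00250). Pcsk4 (contrast 1.62) was no longer called without Bmal1-/- 6 (adjusted p = 0.129) or without both libraries with Xist (adjusted p = 0.272), and the contrast of Cdkn1a was not called in 8 of the 12 fits that left out 1 library at ZT22 or without the 2 libraries with Xist (adjusted p = 0.0774). The change of Cdkn1a at ZT22 itself was lost in 6 of 12 such fits. Pnkd had a contrast of -0.64.

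Hao2 and Cyp3a41a, both listed as female-biased liver genes, had contrasts of -5.41 and -4.50. Their wild-type values at ZT22 rested on wild type 5. The call of Hao2 was lost in 4 of the 12 fits that left out 1 library. Hao2 was at 26.5 CPM and Cyp3a41a at 90.4 there, while the wild-type medians were 0 and 0.453 CPM. Without the 2 libraries with Xist neither gene reached the minimum for the test at ZT22.

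Against ZT10 alone, the phase 12 h away, the genotype difference at ZT22 departed for 144 genes (1.19%), 59 higher and 85 lower, among them 14 of the 27 clock genes, 9 higher and 5 lower. Clock was one that the other contrast did not call, with log2 differences of 1.23 at ZT10 and 0.020 at ZT22 (contrast -1.20, adjusted p = 2.14e-05). Npas2 (contrast -4.64), Nr1d1 (3.56), Wee1 (2.11), Usp2 (2.31), Gys2 (1.41) and Upp2 (2.91) also passed, of which Nr1d1 missed the threshold without the 2 libraries with Xist (adjusted p = 0.0549). Libraries 1 to 3 alone gave 97 genes, and libraries 4 to 6 alone 37.

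Of 22 tested genes of fatty acid and triglyceride synthesis, 9 fell in Bmal1-/- at ZT22 and none rose, where 2.78% of all genes fell, with a median log2 change of -0.95 against 0.01 over all genes. Scd1, the desaturase that makes oleic acid, ranged from 2067 to 6701 CPM (median 4908) in the wild-type libraries and from 167 to 554 (median 450.2) in the Bmal1-/- libraries, a 12.7-fold fall (log2 change -3.67, SE 0.42, adjusted p = 0.000335). The groups of Scd1 did not overlap. The wild-type values themselves fell into 6361 to 6701 CPM in libraries 1 to 3 and 2067 to 3454 in libraries 4 to 6, and the log2 change was -4.70 within the first 3 of each genotype and -2.46 within the others.

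Acacb, the acetyl-CoA carboxylase that makes malonyl-CoA at mitochondria, ranged from 33.05 to 66.1 CPM (median 47.6) in the wild-type libraries and from 2.72 to 7.90 (median 5.58) in the Bmal1-/- libraries (log2 change -3.18, SE 0.23, adjusted p = 1.30e-06). Thrsp, a lipogenic regulator known as Spot 14, ranged from 251 to 695 CPM (median 392) in the wild-type libraries and from 41.3 to 139 (median 64.6) in the Bmal1-/- libraries (log2 change -2.60, SE 0.37, adjusted p = 0.00157). Fads2, the delta-6 desaturase, ranged from 11.2 to 30.7 CPM (median 15.2) in the wild-type libraries and from 4.14 to 7.46 (median 6.18) in the Bmal1-/- libraries (log2 change -1.62, SE 0.22, adjusted p = 0.000472). Each of the 3 had groups that did not overlap, and their calls held in each of the 12 fits that left out 1 library. The other 5 that fell were Pnpla3, Me1, Acss2, Fads1 and Gpam, with log2 changes from -3.98 to -0.97.

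Fasn, the fatty acid synthase, missed the threshold with a log2 change of -1.61 (adjusted p = 0.0619) and passed without the 2 libraries with Xist (adjusted p = 0.0379). Srebf1, which encodes the lipogenic factor SREBP1, had a log2 change of -0.053 (adjusted p = 0.977) and Mlxipl, which encodes the glucose-sensing factor ChREBP, one of -0.50 (adjusted p = 0.0677). Without those 2 libraries 10 of 21 tested members fell: Fasn, Acly and Mlxipl joined, Gpam missed the threshold (adjusted p = 0.0737) and Pnpla3 did not reach the minimum for the test. None of the 22 had a called difference between ZT22 and the other 5 times.

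**Figure D4:**
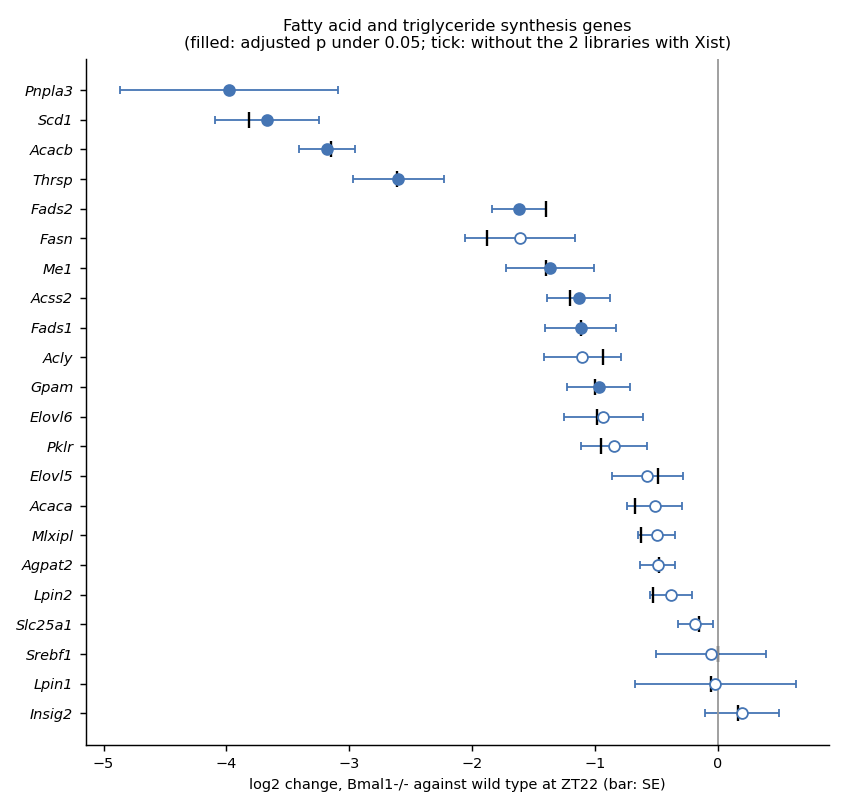
Log2 change with its SE for the 22 tested genes of fatty acid and triglyceride synthesis; filled points passed the test and black ticks give the value without the 2 libraries with Xist. The 9 filled points lie between -3.98 and -0.97, and Srebf1, Lpin1 and Insig2 lie near 0.

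Genes listed as fasting targets of PPAR alpha, not all of them in fatty acid oxidation, had 3 of 27 lower and none higher. Of all genes 2.78% were lower, and the median log2 change of the list was -0.48. Among those that fell, Acaa1b, a peroxisomal thiolase, ranged from 692 to 2136 CPM (median 1081) in the wild-type libraries and from 96.1 to 345 (median 289) in the Bmal1-/- libraries (log2 change -2.36, SE 0.36, adjusted p = 0.00210). Fabp1, the liver fatty acid binding protein, had a log2 change of -1.07 (adjusted p = 0.00561). The groups did not overlap for Acaa1b or Fabp1. In the fit without the 2 libraries with Xist 4 of the 27 were lower, with Plin2, a lipid droplet protein, joining (adjusted p = 0.0494).

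Cholesterol synthesis showed 2 of 25 genes lower and none higher, beside 2.78% of all genes lower. Ebp, a late step of the pathway, fell with overlapping groups (log2 change -0.61, adjusted p = 0.0215). It was highest in wild type 5 and missed the threshold without the 2 libraries with Xist (adjusted p = 0.0579). Pmvk, an enzyme of the mevalonate pathway, passed in that fit (log2 change -1.29, adjusted p = 0.0408). None of 16 bile acid genes passed with all 12 libraries, and without those 2 the transporter Slco1a4 was higher (log2 change 1.63, adjusted p = 0.0117). Of 20 glucose and glycogen genes, Ugp2, which makes UDP-glucose for glycogen, rose (log2 change 0.76, SE 0.13, adjusted p = 0.00326) and Khk, the fructokinase, fell (log2 change -0.81, SE 0.17, adjusted p = 0.00933), each with groups that did not overlap. Gys2 and Gbe1, the glycogen branching enzyme (adjusted p = 0.0341), were lower as well without those 2.

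P450 and conjugation genes moved in both directions, 4 of 23 higher and 4 lower, beside 2.51% and 2.78% of all genes, with a median log2 change of 0.031. Sult1e1, the oestrogen sulfotransferase, had a highest wild-type value of 0.254 CPM, with a median of 0, against 0.347 to 13.8 CPM in Bmal1-/- (median 6.96, adjusted p = 0.00286). Cyp2c29 ranged from 857 to 1663 CPM (median 1237) in the wild-type libraries and from 2289.9 to 5029.8 (median 4012) in the Bmal1-/- libraries (log2 change 1.56, SE 0.22, adjusted p = 0.000630), and Cyp2c54 and Cyp2c55 also rose, by log2 values of 0.82 and 2.80. The Cyp2c genes are near copies of each other, and reads could be split between them in the counting. Cyp2a5, a coumarin hydroxylase, fell with a log2 change of -1.83 (adjusted p = 0.00871), as did Cyp3a13 with -0.66 (adjusted p = 0.0340), a call lost without the 2 libraries with Xist, and Ugt1a1, the bilirubin conjugating enzyme, with -0.81 (adjusted p = 0.0308).

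Cyp17a1, a steroid hydroxylase on the same list, fell with a log2 change of -5.49 (SE 1.29, adjusted p = 0.0361), a size that rested on 1 library. Wild type 5 held 194 CPM and the next wild-type library 12.1, while the Bmal1-/- libraries ranged from 0.401 to 2.51. Without the 2 libraries with Xist the log2 change was -3.24 (adjusted p = 0.00406), and the groups did not overlap in either case. The call was lost in 8 of the 12 fits that left out 1 library.

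Of 19 genes of NRF2 and glutathione defence, 3 rose and 5 fell, beside 2.51% and 2.78% of all genes. The glutathione transferases of the mu class went both ways, with Gstm1, Gstm2 and Gstm3 higher and Gstm4 lower, and Gsta1, Gsta2, Gsta3 and Gsta4 of the alpha class were lower. Gstm1 ranged from 1165 to 1299 CPM (median 1278) in the wild-type libraries and from 1618 to 3614 (median 2372) in the Bmal1-/- libraries (log2 change 0.84, SE 0.17, adjusted p = 0.0101), and Gstm2 ranged from 66.1 to 113 CPM (median 81.1) in the wild-type libraries and from 138 to 407 (median 270.2) in the Bmal1-/- libraries (log2 change 1.52, SE 0.24, adjusted p = 0.00202). Gsta1 ranged from 4.36 to 13.2 CPM (median 7.53) in the wild-type libraries and from 0 to 1.84 (median 0.497) in the Bmal1-/- libraries (log2 change -3.49, SE 0.51, adjusted p = 0.00151), and Gsta4 had a log2 change of -1.57 (adjusted p = 0.00223). The groups did not overlap for these 4 genes. Gsta2, Gstm3 and Gstm4 missed the threshold without the 2 libraries with Xist. Near-identical members of each class may share reads.

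The share called was 12.5% of the heat shock list, 5.88% of the endoplasmic reticulum stress list, 15.0% of the acute phase list and 10.5% of the interferon list, beside 5.29% of all genes, from 1 to 3 genes each. Of 16 heat shock genes 2 fell: Hspb1, a small chaperone, ranged from 6.34 to 19.7 CPM (median 13.6) in the wild-type libraries and from 0.993 to 2.92 (median 1.57) in the Bmal1-/- libraries (log2 change -3.06, SE 0.31, adjusted p = 3.21e-05), and Hspa4l had a log2 change of -0.96 (adjusted p = 0.00180). Of 17 genes of endoplasmic reticulum stress, only Asns, the asparagine synthetase, passed, falling from a median of 3.24 to 0.226 CPM (log2 change -3.94, SE 0.63, adjusted p = 0.00180). Of 20 acute phase genes, Cp, the copper carrier ceruloplasmin, rose (log2 change 0.97, SE 0.17, adjusted p = 0.00379), and Saa2 and Orm1 fell with log2 changes of -4.12 (adjusted p = 0.0434) and -1.05 (adjusted p = 0.0292). Saa2 was highest in wild type 3, at 403 CPM, and neither Saa2 nor Orm1 passed without the 2 libraries with Xist (adjusted p = 0.0851 and 0.0606). Of 19 interferon and antigen presentation genes, the class I genes H2-K1 and H2-D1 fell, with log2 changes of -0.83 and -0.66, of which H2-K1 alone passed without those libraries.

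In growth factor signalling 1 of 16 genes passed, Irs2, the insulin receptor substrate, which ranged from 10.1 to 20.96 CPM (median 16.9) in the wild-type libraries and from 24.7 to 59.2 (median 34.9) in the Bmal1-/- libraries (log2 change 1.06, SE 0.22, adjusted p = 0.0126). Igfbp2, an IGF binding protein, was also higher without the 2 libraries with Xist (adjusted p = 0.0494). Of 11 glucocorticoid receptor genes and targets Sult1e1 alone passed, and of 13 cell cycle genes Cdkn1a alone. Zonation markers gave 1 lower gene of 12 for periportal hepatocytes, Ctsc, a lysosomal protease (log2 change -1.34, SE 0.20, adjusted p = 0.00143), and 1 lower of 12 for pericentral ones, Cyp2a5. These shares were 6.25% for growth factor signalling, 9.09% for glucocorticoid genes, 7.69% for cell cycle genes and 8.33% for each zonation list. Of all genes, 5.29% passed.

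The levels of sex-biased liver genes in wild type 5 stood apart from those of the other wild-type libraries. None of 15 male-biased genes passed, and their summed level was 2091 CPM in wild type 5 against 11039 to 21861 in the other wild-type libraries. In Bmal1-/- the sum was 6089 CPM in library 6 and 6674 in library 5, which is not one of the 2 libraries with Xist, against 14856 to 19955 in the other 4. Of 20 female-biased genes, 16 were tested with a median log2 change of -3.25, but the list summed to 3118 CPM in wild type 5 against 81.8 to 428.9 in the other wild-type libraries and 116.7 to 378.7 in Bmal1-/-. Without the 2 libraries with Xist, 8 passed the minimum for the test, their median was -0.035, and 1 fell, Cyp17a1, the same single call as with all libraries.

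With all 12 libraries, some markers of 3 other cell types in liver passed, where 2.78% of all genes were lower and 2.51% higher. In bulk RNA fewer cells of a type cannot be told apart from less RNA per cell. Of 10 Kupffer cell markers, 3 fell, C1qa, C1qb and Clec4f, with log2 changes of -0.90, -1.17 and -0.86. The 10 summed to 284.2 to 864.4 CPM in wild type and 198.6 to 398.7 in Bmal1-/-, and only C1qb passed without the 2 libraries with Xist. Of 5 erythroid genes the globins Hba-a2, Hbb-bs and Hbb-bt fell, with a summed level of 2543 to 13134 CPM in wild type and 1068 to 2286 in Bmal1-/-, and Hbb-bs alone passed without those libraries (adjusted p = 0.0479). The bile duct genes Spp1 and Sox9 rose, by log2 values of 1.53 and 1.25 (Spp1 missed the threshold without those libraries), while the defining markers Krt19, Krt7 and Epcam were below the minimum for the test. Without those libraries the stellate list marker Rgs5 was higher (log2 change 0.87, adjusted p = 0.0316). With all 12, none of 9 endothelial, 9 stellate or 7 hepatocyte genes passed, and neither did the adipocyte, neutrophil and lymphocyte markers, of which 2 each were tested. The part of these markers in the gene results was not tested.

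The largest changes of all were in genes outside the clock. By a rule of size (called, at least 5 CPM in the higher group, no overlap), the 10 largest rises ran from 3.66 to 6.30 on the log2 scale and the 10 largest falls from -3.49 to -5.49. All 20 were also called over the other 5 times, in the same direction, and for none did the difference at ZT22 depart from theirs by the test.

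Lpl, the lipoprotein lipase that releases fatty acids from lipoproteins, ranged from 17.9 to 57.4 CPM (median 22.8) in the wild-type libraries and from 212 to 575 (median 352) in the Bmal1-/- libraries, a 12.7-fold rise (log2 change 3.66, SE 0.34, adjusted p = 5.67e-05). Ntrk2, the receptor TrkB, ranged from 0.531 to 4.44 CPM (median 0.810) in the wild-type libraries and from 21.8 to 88.97 (median 43.5) in the Bmal1-/- libraries (log2 change 5.04, SE 0.57, adjusted p = 0.000472). Gdpd3, a phospholipid phosphodiesterase, ranged from 0.142 to 1.05 CPM (median 0.590) in the wild-type libraries and from 13.5 to 32.4 (median 22.4) in the Bmal1-/- libraries (log2 change 5.08, SE 0.31, adjusted p = 1.80e-07). Wild type 5 was the highest wild-type library for Lpl and Ntrk2. Tox2, an HMG-box factor, Fmn2, a formin, Defb1, a beta-defensin, Nckap5 and 3930402G23Rik had rises between 3.66 and 4.54. AC131596.1 and Sult1e1 had a wild-type median of 0, so their fitted changes depend on the small count the fit adds.

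Among the falls, Mme, the peptidase neprilysin, ranged from 18.4 to 60.1 CPM (median 44.7) in the wild-type libraries and from 1.74 to 6.93 (median 2.53) in the Bmal1-/- libraries (log2 change -3.49, SE 0.40, adjusted p = 0.000351). Smim22 ranged from 10.2 to 26.8 CPM (median 16.6) in the wild-type libraries and from 0.118 to 1.56 (median 0.528) in the Bmal1-/- libraries (log2 change -4.99, SE 0.37, adjusted p = 2.12e-06). Dct, the melanin enzyme dopachrome tautomerase, ranged from 5.58 to 20.8 CPM (median 9.52) in the wild-type libraries and from 0.118 to 1.67 (median 0.628) in the Bmal1-/- libraries (log2 change -4.09, SE 0.52, adjusted p = 0.000515). The calls of Mme, Smim22 and Dct held in each of the 12 fits that left out 1 library. Clstn3, Rcan2, AC151971.2 and the pseudogene Rps13-ps2 completed the set with Scd1, Gsta1 and Cyp17a1.

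**Figure D5:**
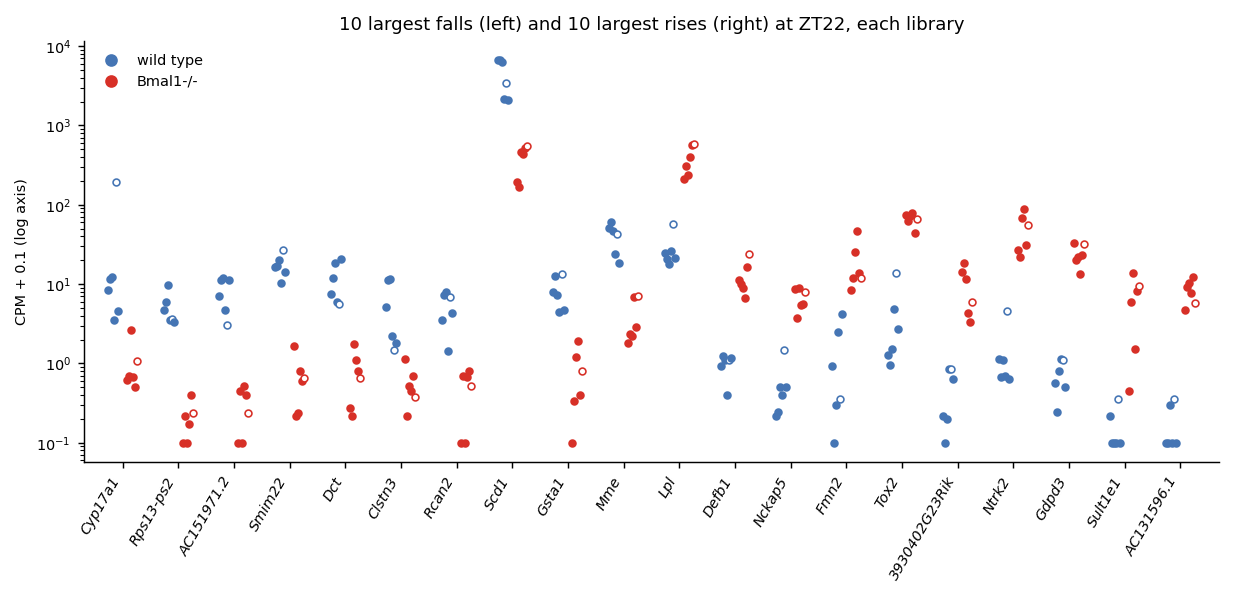
CPM + 0.1 on a log axis in each library for the 10 largest falls and the 10 largest rises at ZT22; open circles are wild type 5 and Bmal1-/- 6. The 20 genes were chosen with groups that do not overlap, and wild type 5 lies far above the other wild-type libraries for Cyp17a1.

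The counts were also tested at single polyadenylation sites. Of 20294 sites tested, 432 differed (2.13%), 206 higher and 226 lower, and 275 without the 2 libraries with Xist. Leaving out wild type 2 gave 254 sites. The called sites placed in a gene fell in 304 genes, 255 of which were also called at gene level, and 1 gene, Me1, had called sites in both directions. Scd1 had 7 sites tested, and each was lower by a log2 value between -3.86 and -3.25.

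A difference in usage, the share of a gene's site counts that falls at a given site, was called for far fewer sites. In simulations the usage test recovered 7.46% of 2-fold changes in the odds of a site, and the site test 13.4% of 2-fold changes. The count called is therefore not a count of all sites whose usage changed. Of 13732 sites in 4414 genes, 11 sites in 8 genes passed (0.0801%), and none of the 11 had overlapping groups. Both sites of Rps13 and 1 site each of Me1, Gm5611, Rps15a-ps4 and Map3k7 held in every fit that left out 1 library. Leaving out wild type 6 gave 6 sites in all, and with libraries 1 to 3 alone 1 site was called. Of the 11, 7 passed without the 2 libraries with Xist. By edgeR's diffSpliceDGE, another test of usage, 5 of the 11 passed, both sites of Rps13 and 1 site each of Me1, Gm5611 and Rps15a-ps4, while those of Map3k7, Paqr9, Sec23ip and Mup12 had adjusted p values of 0.147 or more.

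In Me1, the malic enzyme that supplies NADPH for lipogenesis, a site at chr9:86581766-86581834 on the minus strand, 403 bases before the annotated end, held 2.52% ± 1.03 of the gene's counts in wild type and 30.5% ± 4.93 in the knockout (mean ± SD, n = 6; log2 change 3.59, SE 0.22, adjusted p = 1.55e-06). It ranged from 1.53% to 4.12% in wild type and from 21.6% to 36.5% in Bmal1-/-. The site at the annotated end held 64.01% and 47.9%. The shift went with lower total Me1 (gene log2 change -1.37, adjusted p = 0.0468), and in CPM the upstream site rose (log2 change 2.13, adjusted p = 0.0122) while the end site fell (-1.84, adjusted p = 0.01001).

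In Map3k7, which encodes the kinase TAK1, the site at the annotated end (chr4:32023372-32023474, plus strand) held 64.9% ± 5.09 in wild type and 38.7% ± 5.62 in the knockout (log2 change -0.75, SE 0.10, adjusted p = 0.0111). A site 3057 bases before it held 16.1% ± 5.35 and 37.9% ± 5.49 (log2 change 1.22, SE 0.19, adjusted p = 0.0286). The gene's total did not pass (log2 change 0.049, adjusted p = 0.918). Without the 2 libraries with Xist the adjusted p values of the end site and the upstream site were 0.0812 and 0.169.

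Rps13, a ribosomal protein gene, had the widest shift. The site at its annotated end (chr7:116331504-116331615, minus strand) held 71.6% ± 10.04 in wild type and 2.51% ± 1.04 in the knockout (log2 change -4.83, SE 0.20, adjusted p = 1.97e-08), and its other site, 910 bases before it, held the rest. The total of Rps13 fell (gene log2 change -1.62, adjusted p = 2.49e-05). Mean CPM went from 203 in wild type to 2.38 in Bmal1-/- at the end site, and from 73.4 to 92.1 at the other. The pseudogene Rps13-ps2 fell as well, from a median of 4.11 to 0.0946 CPM, and reads could be shared between the 2 genes. Rps13 lies 3.09 Mb from Arntl on the same chromosome. There, 6 of 108 tested genes within 10 Mb of Arntl passed, or 5.56%, beside 5.32% of all genes with a position. Within 20 Mb 16 of 277 passed, or 5.78%, among them Gdpd3 at 13.5 Mb and Sec23ip at 15.5 Mb.

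The pseudogene Rps15a-ps4 and Gm5611 gave the other wide shifts, 47.5% ± 12.8 to 1.49% ± 1.52 at 1 site of the former and 1.53% ± 1.84 to 51.8% ± 7.29 at 1 site of the latter. These shares rest on few reads. Rps15a-ps4 had 30 to 134 site counts per library, and Gm5611 had 21 to 65 in wild type and 108 to 207 in Bmal1-/-. The total of Gm5611 rose (gene log2 change 2.18, adjusted p = 0.000101). Sec23ip moved toward its most distal tested site (44.5% ± 7.90 to 79.1% ± 6.64), and so did Paqr9, a progestin receptor family gene (17.1% ± 2.93 to 28.8% ± 2.46), whose total fell (log2 change -1.87, adjusted p = 1.10e-05). The total of Sec23ip rose (log2 change 1.04, adjusted p = 0.00113). The usage call was lost in 4 of the 12 fits that left out 1 library for Sec23ip and in 3 for Paqr9, and for Paqr9 without the 2 libraries with Xist (adjusted p = 0.118). A site of Mup12, a major urinary protein with many near-identical copies, ranged from 5.69% to 64.1% among the Bmal1-/- libraries alone, and its call was lost in 7 of those 12 fits and without the 2 libraries with Xist (adjusted p = 0.117). A difference in mean distal usage did not pass the test: the mean share at the most 3′ site over 4414 genes was 45.8% ± 1.89 in wild type and 44.9% ± 2.01 in Bmal1-/- (SD, n = 6; 2-sided exact permutation test, p = 0.455).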

How the data were processed

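The 3′ end libraries of total liver RNA were made with a QuantSeq kit from 2 µg of RNA extracted with TRIzol, per the labels' protocols. The values used are whole-number read counts per gene and per polyadenylation site, which the authors deposited as raw tables. STAR 2.4.2a, edgeR and HOMER, and the builds mm10 and GRCm38.p5, are named per the submitters' processing notes, with no role given. The deposited positions (other values, with no measurement) are those of the authors' filtered site list. Its filter is not given in the sources used here, and neither is whether gene counting used strand.

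Groups were taken from the labels, and 12 libraries entered the comparison at ZT22. Features averaging 10 counts or more were tested with edgeR 4.0.16 in R 4.3.3 (TMM scaling, robust quasi-likelihood test, Benjamini-Hochberg adjusted p under 0.05). All adjusted p values given are of this test, apart from those named as of diffSpliceDGE. CPM values use each library's summed counts, with no TMM factor. The contrasts of ZT22 with the other 5 times and with ZT10 were fitted on 72 libraries in 12 groups. Sites were given to a gene on its strand, up to 1000 bases past its end, in 1 gene only, and the strand of 2549 genes was read from their sites. Usage was tested with the gene's total as offset, for genes with at least 50 counts on average and at least 2 sites with 5% or more of them over the 12 libraries. Mean distal usage was compared with an exact permutation test.

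The depth given per library limits precision for low genes. In simulated counts with known changes, the test at ZT22 over 12198 genes recovered 17.9% of 1.5-fold, 49.3% of 2-fold and 81.8% of 4-fold changes. For usage, over 13732 sites, the changes were in the odds of a site against the gene's other sites. The usage test recovered 0% of 1.5-fold, 7.46% of 2-fold and 47.0% of 4-fold changes. Its sites were simulated independently with the spread of plain site counts, which includes variation of the whole gene. These usage figures describe the simulation and may differ from recovery in the real counts. A 4-fold change in the odds is less than 4-fold in the share itself, in either direction. No pair of libraries within a group held identical counts (30 pairs). The alternatives were median-ratio size factors, DESeq2 1.42.0, other minimums, a replicate block, diffSpliceDGE for usage, libraries 1 to 3 or 4 to 6 alone, the 72-library fit, leaving out each library, and leaving out the 2 libraries with Xist, which was chosen after seeing the data.

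The members and gene lists were chosen with earlier results of these data known. Named genes are the tested clock genes, up to 4 called members per other list with the smallest adjusted p, the 10 largest rises and falls, the largest contrasts, the called usage sites, and checks of the libraries. Members beyond 4 in a list, and list members that missed the threshold, were named after their values were seen. A few list members count in the totals but are not reported here.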

Additional observations from a re-analysis of the deposited data

Results flagged for a closer look

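In each named gene, the highest or lowest library of a group was compared with the group's range, and 27 of 180 groups had a library that stood apart (Dixon's ratio above 0.625 for 6 libraries). Chance flags about 1 in 20 groups when values are normally distributed. The groups here share the same 12 libraries and hold unlogged CPM values, so that rate gives no expected count for them. Wild type 5 accounted for most of the 27. In that library Xist at 408 CPM was far above the other wild-type libraries, and Ddx3y at 0.380 CPM and Uty at 0 CPM were far below. Clock and output genes that stood high there were Per3 at 5.20 CPM, Bhlhe40 at 44.9 CPM, Noct at 12.6 CPM and Upp2 at 262 CPM. Metabolic genes that stood high there were Cyp17a1 at 194 CPM, Ebp at 576 CPM, Fads2 at 30.7 CPM and Gsta4 at 47.9 CPM. Of the genes that rose in Bmal1-/-, Lpl at 57.4 CPM, Nckap5 at 1.39 CPM, Ntrk2 at 4.44 CPM and Tox2 at 13.8 CPM were highest in wild type 5 as well.

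In wild type 3 the globins Hba-a2 at 6783 CPM, Hbb-bs at 3602 CPM and Hbb-bt at 531 CPM stood apart, with C1qb at 89.9 CPM and Saa2 at 403 CPM. Among the Bmal1-/- libraries, replicate 6 stood apart for Xist at 491 CPM, Per3 at 7.35 CPM and Pcsk4 at 8.87 CPM. Replicate 2 stood apart for Alas1 at 285 CPM, Cdkn1a at 386 CPM and Saa2 at 19.7 CPM. Replicate 3 was high for Cyp17a1 at 2.51 CPM.

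The genotype difference at ZT22 departed from that at the other 5 times for 15 genes, by the test of the contrast. Higher at ZT22, in log2 units, were Dbp (3.12), Per3 (2.28), Nr1d2 (2.19), Gpcpd1 (1.69), Pcsk4 (1.62) and Tef (1.02). Lower were Hao2 (-5.41), Cyp3a41a (-4.50), Cdkn1a (-2.41), Ppard (-1.90), Arntl (-1.79), Cry1 (-1.23), Nfil3 (-1.18), Slc30a10 (-0.97) and Pnkd (-0.64). Hao2 and Cyp3a41a were high in wild type 5 alone among the wild-type libraries at ZT22.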

How the results depend on the processing

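The count of genes that differed at ZT22 (645) was 275 with libraries 1 to 3 alone, 291 with libraries 4 to 6 alone and 1006 with DESeq2, and it ran from 410 (without wild type 2) to 590 when 1 library was left out. For the contrast with the other 5 times (15), libraries 4 to 6 gave 0 genes, with 441 at an unadjusted p under 0.05. For the contrast with ZT10 (144), those libraries gave 37. The count of sites (432) was 120 with libraries 1 to 3, 257 with libraries 4 to 6, 275 without the 2 libraries with Xist, and 254 to 383 when 1 library was left out. The count of usage sites (11) was 1 with libraries 1 to 3, 37 with libraries 4 to 6, 19 when a site had to hold at least 10% of its gene, 5 for genes with at least 200 counts, and 6 to 16 when 1 library was left out. Fits on 3 against 3 libraries use fewer samples, and otherwise the cause was not tested. Apart from the replicate block given next, the other counts stayed within 1.5 times of those reported. Mean distal usage did not pass the test under any alternative, with differences of -1.51 to -0.32 percentage points when 1 library was left out.

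The replicate numbers are shared by the genotypes. Deviations of same-numbered libraries correlated between -0.18 and 0.17, not every library correlated best with its own number, and nothing in the labels ties the numbers together. With the replicate block 486 genes, 275 sites and 4 usage sites were called, all 4 among the 11. The usage calls of Map3k7, Paqr9, Sec23ip and Mup12 and of 1 site each of Rps13 and Rps15a-ps4 missed the threshold there. DiffSpliceDGE also called 11 usage sites, 5 of them among the 11.

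Log2 changes at ZT22 changed sign for some named genes, none of which was called with all 12 libraries. Alas1 ran from -0.0094 to 0.49 when 1 library was left out, Rora from -0.0073 to 0.15, Tfrc from -0.13 to 0.38 and Clock from -0.016 to 0.061. Clock was also at -0.023 without the 2 libraries with Xist, and with libraries 1 to 3 alone the changes were -0.013 for Clock, -0.29 for Tfrc, 0.075 for Upp2 and 0.30 for Usp2. Depth limits the low genes most, among them Dbp, Nr1d1 and Per3 at ZT22.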
